A study of Mus musculus with 12 samples.

Results

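The genes described here are interferon-inducible and strain-polymorphic immune genes of the mouse fetal testis. They were chosen by symbol in the platform annotation: Ifi genes with a numbered symbol, the Ifit and Ifitm, Gbp, Irf, Oas, Mx and Stat genes, Irgm and Iigp, plus Mndal and Trim12a, with the Irf2bp and Statip genes left out and only probe sets that name 1 gene. The rule reads symbols alone, but the members were chosen with earlier results of these data known, and Mndal and Trim12a were added by name. The rule found 62 genes with 89 probe sets, of 18194 genes on the array. Of these 62 genes, 34 were bright enough to be tested, among 12726 tested genes in all, and 28 were not.

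The study asked what conditional removal of Dmrt1, a DNA-binding regulator of testis and germ cell development, does to gene expression in testes of 2 mouse strains. Total RNA from whole testes was hybridised to 12 Affymetrix arrays in 4 groups of 3: Dmrt1 knockout testes of strain 129Sv, wild-type testes of 129Sv, Dmrt1 knockout testes of strain B6 and wild-type testes of B6. The age label is E15.5 in all groups, whereas the growth protocol names P28 embryos. The labels do not name the Cre driver or the deleted part of the gene, nor whether a sample is 1 animal or a pool. The p-values thus measure no more than the spread among samples within groups. That spread was estimated over the 4 groups of 3 together and moderated over all tested genes.

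Interferons are secreted antiviral cytokines. They bind cell-surface receptors whose Jak and Tyk kinases phosphorylate Stat transcription factors, and Stat and Irf factors then switch on a large set of interferon-inducible genes. The products of these genes sense nucleic acids (Ifi, Oas), block viruses at membranes (Ifitm), or attack the vacuoles of intracellular microbes (the Gbp and Irgm GTPases). Many of these families are clusters of near-identical copies that differ between inbred mouse strains. Several are also expressed without infection, and Ifitm genes are known from mouse primordial germ cells.

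Values are log2 of the deposited intensities, and a gene was tested if at least 3 arrays read log2 4 or more. Differences carry their standard error from limma across all tested genes. A difference counts as called at a Benjamini-Hochberg adjusted p under 0.05 over all 12726 genes. Where a group read below log2 4, fold changes were computed against 4 and are given as "at least".

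Dmrt1 itself had log2 intensities of 7.43, 7.18 and 7.50 in 129Sv knockouts, against 10.21, 9.85 and 9.99 in 129Sv wild type, and of 6.43, 6.00 and 6.19 in B6 knockouts, against 9.64, 10.09 and 10.06 in B6 wild type, so every label fitted its genotype. Dmrt1 fell 6.24-fold in 129Sv (-2.64 ± 0.17) and 13.2-fold in B6 (-3.72 ± 0.17). It was 2.25-fold higher in 129Sv than in B6 knockouts (1.17 ± 0.17, adjusted p = 0.00017), with no overlap. The difference between the knockout effects was 1.08 ± 0.24 (adjusted p = 0.045), a call lost without B6 knockout replicate 3 (0.0515). The part of this unequal fall in the other comparisons was not tested. Median intensity lay between 17.3 and 19 on the 12 arrays. The ratio of 3′ to 5′ Actb probe sets, a sign of RNA quality, reached 6.30 on 1 B6 knockout array (replicate 3). It was 5.24 for replicate 1 of the 129Sv knockouts, 3.91 for replicate 2 of the 129Sv wild types and 1.99 to 2.79 elsewhere. All 5 germ cell, 6 Sertoli and 4 fetal Leydig markers on the array were bright enough to test. In whole testes, fewer cells of a type and less RNA per cell cannot be told apart.

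Of the families, 4 of 6 Gbp genes, 6 of 8 Irf genes, 5 of 6 Stat genes, 5 of 7 Ifitm genes, 2 of 3 Irgm and Iigp genes, 2 of 7 genes of the Ifi200 cluster (Mndal among them), 5 of 7 other Ifi genes, 3 of 10 Oas genes, 1 of 5 Ifit genes, Trim12a and 0 of 2 Mx genes were tested. Of the 34 tested genes, 24 read at least log2 4 on all 12 arrays. The 28 untested genes included Mx1, Mx2, Irf4, Irf7, Ifit1, Ifit3 and Oas2. Among these 28, only Gbp6, Ifi47, Iigp1, Oas1c and Oas1f reached log2 4 on any array, with Gbp6 highest at 5.61 in B6 knockout replicate 3. The brightest members were membrane proteins: Ifitm2 averaged 12.09 on the 12 arrays, Ifitm1 11.47 and Ifitm3 10.87. Of these, only Ifitm1 passed the test in any comparison.

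Between wild-type testes of the strains, 129Sv minus B6, 10 of the 34 tested members were called, which is 29.4% of them, against 16.1% of all tested genes. Of these, 7 were higher in 129Sv (background 10.9%) and 3 were lower (background 5.19%). Of the 10, Gbp2b, Ifi202b and Trim12a were bright enough in 1 strain alone, so a difference was built into their being tested, and 7 of the other 31 members were called (22.6%), against 15.2% of the genes not under log2 4 throughout a strain. Trim12a and Mndal had been added to the set by name, and Mndal is among these 7. The median log2 difference of the members was 0.04, beside 0.06 over all tested genes. In knockout testes, from 6 other arrays, 14 of 34 were called (41.2%, background 34.1%), with 10 higher (background 20.3%) and 4 lower (background 13.8%), and without the same 3 genes 11 of 31 (35.5%, against 33.3%). Their median was 0.11, beside 0.03 over all genes. The set called in both held 8 genes, all in the same direction, as were 11.4% of all tested genes. Gbp2b, Ifi202b and Trim12a, with a difference built into their being tested, are among these 8. The sign was the same for 25 of 34 members, against 70.7% of all genes. Single wild-type arrays moved the wild-type count. It was 4 when replicate 2 of 129Sv was left out (8.14% of all genes), 5 when replicate 3 of 129Sv was left out (9.84%) and 5 when replicate 2 of B6 was left out (10.1%). The last number in the array titles, whose meaning the labels do not give, runs 7 to 12 in 129Sv and 1 to 6 in B6, so strain and that number cannot be told apart. A strain difference in RNA level and one in the sequence under a probe cannot be told apart on these arrays either.

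Trim12a, a Trim5-related protein of the retrovirus-restriction family on chromosome 7, had the widest strain gap among the members. In 129Sv wild type it read 1.97, 1.91 and 2.02, against 7.40, 7.60 and 6.79 in B6 wild type. In 129Sv knockouts it read 1.98, 2.04 and 1.99, against 7.38, 7.36 and 6.81 in B6 knockouts. Trim12a was thus near the array's floor on all 6 129Sv arrays and well above it on all 6 B6 arrays, with no overlap. It was lower in 129Sv by -5.30 ± 0.23 in wild type (adjusted p = 2.86e-09, B6 at least 9.59-fold higher) and by -5.18 ± 0.23 in knockout (adjusted p = 2.96e-09). Its other probe set read 2.44 to 2.72 on all 12 arrays and showed no strain gap. The neighbouring gene Trim12c, no member of the set, went the other way, with 9.14, 9.40 and 9.46 in 129Sv wild type, against 8.34, 8.57 and 8.48 in B6 wild type (difference 0.87 ± 0.15, adjusted p = 0.00186).

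The promoter window of Trim12a is shown because it is the gene with the widest strain gap, as 250 bases before and 50 after the start site in RefSeq, build GRCm38.p6 (an assembly of strain C57BL/6J), chr7:104315446-104315745, minus strand. Capitals mark an interferon-stimulated response element (ISRE), searched as GAAANNGAAA or its reverse TTTCNNTTTC, at positions 261 to 270 of the window, which lies just past the start site at position 251. The 129Sv sequence was not used here.
Trim12a: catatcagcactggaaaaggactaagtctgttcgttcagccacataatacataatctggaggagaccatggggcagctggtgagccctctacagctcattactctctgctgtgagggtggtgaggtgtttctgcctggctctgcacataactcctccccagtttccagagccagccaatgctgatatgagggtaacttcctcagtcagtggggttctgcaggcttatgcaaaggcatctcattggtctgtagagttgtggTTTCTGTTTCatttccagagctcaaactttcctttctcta

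Gbp2b, a guanylate-binding GTPase on chromosome 3, was the mirror image. It read 4.73, 4.94 and 4.73 in 129Sv wild type, against 1.16, 1.49 and 1.30 in B6 wild type. In 129Sv knockouts it read 6.38, 5.36 and 6.17, against 1.46, 1.29 and 1.54 in B6 knockouts. All 6 B6 arrays sat at the floor. The difference was 3.48 ± 0.25 in wild type (adjusted p = 6.5e-07, at least 1.74-fold) and 4.54 ± 0.25 in knockout (adjusted p = 2.74e-08, at least 3.92-fold).

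In the Ifi200 cluster on chromosome 1, whose PYHIN proteins bind DNA, both tested genes differed between strains, in opposite directions. Ifi202b, known in mice as an inhibitor of the Aim2 DNA sensor, read 4.54, 4.65 and 4.60 in 129Sv wild type, against 2.85, 2.83 and 2.63 in B6 wild type. In 129Sv knockouts it read 4.42, 3.89 and 4.41, against 2.69, 2.81 and 3.23 in B6 knockouts. Ifi202b stayed under log2 4 on every B6 array and differed by 1.82 ± 0.22 in wild type (adjusted p = 8.83e-05, at least 1.51-fold) and 1.33 ± 0.22 in knockout (adjusted p = 0.00041), the knockout call being lost when values under 4 were set to 4 (adjusted p = 0.14). Mndal read 4.87, 4.99 and 5.04 in 129Sv wild type, against 7.16, 6.79 and 6.75 in B6 wild type. It read 4.95, 5.31 and 5.13 in 129Sv knockouts, against 6.06, 7.13 and 7.82 in B6 knockouts. The Mndal groups did not overlap, and it was lower in 129Sv by -1.93 ± 0.32 in wild type (3.81-fold, adjusted p = 0.00111) and -1.87 ± 0.32 in knockout (3.66-fold, adjusted p = 0.000522). Its other probe set gave -1.45 and -1.97. The calls of Trim12a, Gbp2b and Mndal in both comparisons, and of Ifi202b in wild type, held when each array was left out in turn.

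**Figure D1:**
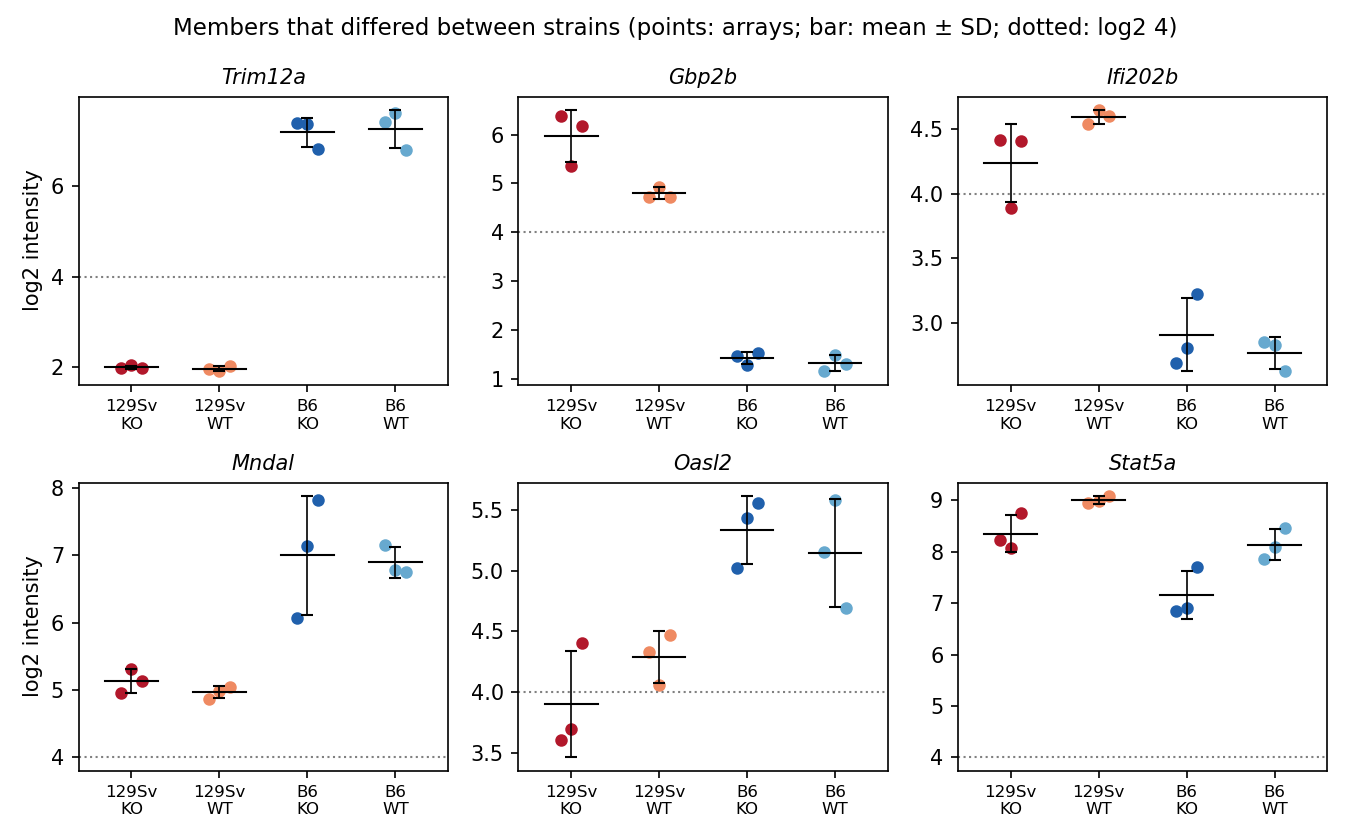
Log2 intensity (vertical axes) of 6 members in 129Sv knockout, 129Sv wild-type, B6 knockout and B6 wild-type testes; points are arrays, bars the mean ± SD of 3, and the dotted line log2 4. Trim12a is near 2 on all 129Sv arrays and at 6.79 or more on all B6 arrays, Gbp2b is at 1.54 or less on all B6 arrays, and Mndal and Oasl2 are lower in 129Sv.

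Of the oligoadenylate synthetases, which activate an RNA-cutting enzyme on sensing double-stranded RNA, the 2 called in wild type went opposite ways. Oasl2 read 4.33, 4.06 and 4.48 in 129Sv wild type, against 5.15, 5.58 and 4.69 in B6 wild type (-0.85 ± 0.27, 1.81-fold lower, adjusted p = 0.0452). In 129Sv knockouts Oasl2 read 3.61, 3.70 and 4.41, against 5.02, 5.43 and 5.55 in B6 knockouts (-1.43 ± 0.27, adjusted p = 0.0012, at least 2.52-fold lower). Oasl2 was lower in 129Sv without overlap in both genotypes. Oas1a read 4.89, 5.43 and 5.34 in 129Sv wild type, against 4.36, 4.41 and 4.51 in B6 wild type, and was 1.74-fold higher (0.80 ± 0.25, adjusted p = 0.0458). In knockouts its difference of 0.61 ± 0.25 did not pass. The wild-type calls of both genes were marginal: each was lost when any of several single arrays was left out, up to adjusted p = 0.175 without 129Sv wild-type replicate 2 for Oas1a and without B6 wild-type replicate 2 for Oasl2.

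Among the Irf transcription factors, Irf1 and Irf8 were higher in 129Sv wild type. Irf8, a factor of macrophage and dendritic cell development, read 6.97, 7.12 and 7.08 in 129Sv wild type, against 5.62, 5.56 and 5.66 in B6 wild type (1.45 ± 0.35, 2.72-fold, adjusted p = 0.0123). Its other probe set gave 0.92. In knockouts Irf8 read 6.58, 6.01 and 6.33 in 129Sv, against 5.63, 5.70 and 7.42 in B6, so the groups overlapped through B6 knockout replicate 3, and the difference was 0.05. Without that array it was 0.64 and passed (adjusted p = 0.0183). Irf1 read 7.88, 8.24 and 7.93 in 129Sv wild type, against 7.55, 7.41 and 7.42 in B6 wild type (0.56 ± 0.17, 1.47-fold, adjusted p = 0.0386). In 129Sv knockouts Irf1 read 9.48, 9.11 and 9.35, against 8.65, 8.61 and 8.12 in B6 knockouts (0.85 ± 0.17, 1.81-fold, adjusted p = 0.00169). Irf1 was higher in 129Sv without overlap in both genotypes. Its wild-type call was lost without 129Sv knockout replicate 3 or any single wild-type array (adjusted p from 0.051 to 0.168), and that of Irf8 without 129Sv wild-type replicate 2 (0.0502). Irf3, the factor activated by viral RNA sensors, was lower in 129Sv knockouts, at 9.59, 9.46 and 9.65, against 9.79, 9.98 and 10.21 in B6 knockouts (-0.43 ± 0.12, 1.35-fold, adjusted p = 0.0156). That call was lost without 129Sv knockout replicate 2 (0.0557) or B6 knockout replicate 3 (0.0571).

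The Stat genes that were called were all higher in 129Sv. Stat5a, a mediator of prolactin and cytokine signals, read 8.94, 8.98 and 9.09 in 129Sv wild type, against 7.86, 8.10 and 8.46 in B6 wild type (0.87 ± 0.24, 1.82-fold, adjusted p = 0.0219). In 129Sv knockouts it read 8.23, 8.08 and 8.75, against 6.85, 6.91 and 7.70 in B6 knockouts (1.20 ± 0.24, 2.29-fold, adjusted p = 0.0015). Stat5a groups did not overlap in either genotype. Stat3, which carries interleukin-6 family signals, read 8.15, 8.02 and 8.17 in 129Sv wild type, against 7.72, 7.62 and 7.51 in B6 wild type (0.50 ± 0.14, 1.42-fold, adjusted p = 0.0256), and differed by 0.41 ± 0.14 in knockouts (adjusted p = 0.0357). With the probe sets of Stat3 averaged, neither difference passed (adjusted p = 0.267 and 0.816). Stat2, the partner of Irf9 in the type I interferon response, was called in knockouts, with 5.31, 5.47 and 5.70 in 129Sv, against 4.95, 4.98 and 4.04 in B6 (0.83 ± 0.24, 1.78-fold, adjusted p = 0.0151), and its B6 knockout replicate 3 was lowest. Single arrays decided several of these calls. The wild-type call of Stat5a was lost without 129Sv wild-type replicate 2 or 3 or B6 wild-type replicate 1 or 2 (up to 0.102). For Stat3 it was lost without any 129Sv wild-type array or B6 wild-type replicate 2 or 3 (up to 0.0959). The knockout call of Stat3 was lost without 129Sv knockout replicate 1 or 3, 129Sv wild-type replicate 1 or 3 or B6 knockout replicate 1 or 2 (up to 0.117), and that of Stat2 without 129Sv knockout replicate 3 (0.0641).

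Gbp3, Irgm1, Gbp2 and Ifi27l2a passed between the strains' knockouts and not between wild types. Gbp3 was higher in 129Sv knockouts by 2.64 ± 0.24 (at least 6.06-fold, adjusted p = 2.86e-06), against 0.27 ± 0.24 in wild type (adjusted p = 0.494). Irgm1 was higher by 1.00 ± 0.22 (2.00-fold, adjusted p = 0.00344), against -0.27 ± 0.22 in wild type (adjusted p = 0.44). Gbp2 was higher by 1.07 ± 0.30 (2.09-fold, adjusted p = 0.0133, and 0.0567 without B6 knockout replicate 2), and Ifi27l2a, a mitochondrial interferon-induced protein, by 1.36 ± 0.32 (2.57-fold, adjusted p = 0.00445). Array values of these 4 genes are given with the knockout comparisons. The test of whether the strain effect differed between genotypes is the same as that of the knockout effect between strains, and of these genes only Gbp3 passed it.

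**Figure D2:**
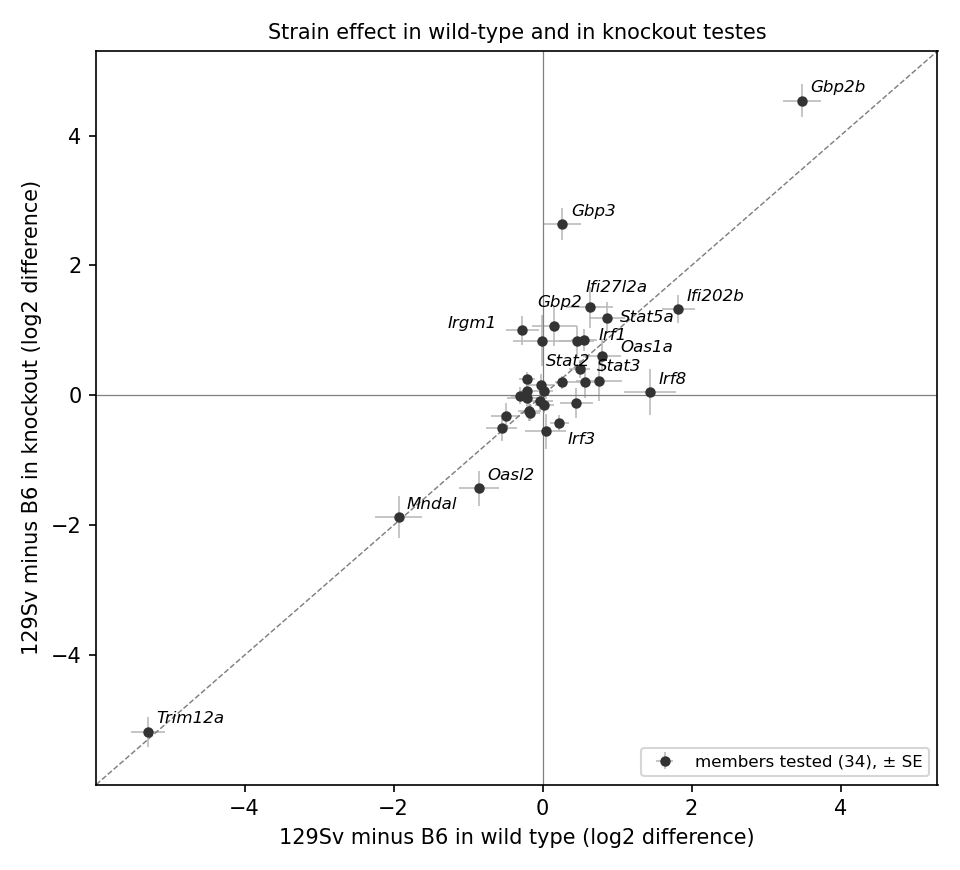
Difference of 129Sv minus B6 (log2) in wild type (horizontal) and in knockout testes (vertical) for the 34 tested members; points are limma estimates, bars their standard errors, and the dashed line marks equal effects. Trim12a, Mndal and Oasl2 lie low and Gbp2b and Ifi202b high on both axes, while Gbp3, at 0.27 and 2.64, lies far above the line.

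Markers of other cells were also called in the strain contrast of knockouts. That contrast called 34.1% of all tested genes (20.3% higher and 13.8% lower), against 16.1% in wild type. Of 15 tested macrophage and leukocyte markers, 0 were called between wild types and 7 were lower in 129Sv knockouts. Their median log2 difference was negative in both, at -0.51 in wild type and -0.73 in knockouts. Their summed intensity was 2639 to 3253 in 129Sv knockouts, against 4879 to 7430 in B6 knockouts, and 2762 to 3881 in 129Sv wild type, against 3073 to 6169 in B6 wild type. The 5 germ cell markers were all higher in 129Sv knockouts, with sums of 13774 to 17110, against 5916 to 9747 in B6 knockouts, and of 15055 to 15374 in 129Sv wild type, against 11217 to 12733 in B6 wild type. Of 9 tested endothelial markers 6 were lower in 129Sv knockouts, as were 3 of 4 fetal Leydig and 3 of 6 Sertoli markers. B6 knockout replicate 3 had the highest macrophage sum and the lowest germ cell sum. The part of these cells in the strain differences above was not tested.

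In 129Sv, knockout minus wild type, 7 of 34 tested members were called (20.6%, background 8.31%), with 6 higher (background 4.07%) and 1 lower (background 4.24%). The higher ones were the GTPases Irgm1, Gbp3, Gbp2 and Gbp2b, the transcription factor Irf1 and the membrane protein Ifitm1, and the lower one was Oas3. In B6, 6 of 34 were called (17.6%, background 7.9%), with 3 higher (Irgm1, Irf1 and Ifitm1, background 2.45%) and 3 lower (Ifi27l2a, Oas3 and Stat5a, background 5.45%). The 2 comparisons share no array. Irgm1, Irf1, Ifitm1 and Oas3 were called in both in the same direction, as were 3.02% of all tested genes. Oas3 was bright enough in wild type alone, so a fall was built into its being tested, and without it 6 of 33 members were called in 129Sv (18.2%, against 7.54% of genes not under log2 4 throughout a genotype) and 5 of 33 in B6 (15.2%, against 7.45%). The median difference of the members was 0.04 in 129Sv and 0.06 in B6, beside -0.01 and 0.03 over all genes, and 21 of 34 had the same sign in both strains, against 56.1% of all genes. Without B6 knockout replicate 3, an array outside the 129Sv comparison that enters the shared spread, 11 members and 12.3% of all genes were called in 129Sv.

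Irgm1, an immunity-related GTPase of autophagy and vacuole defence on chromosome 11, had the widest rise among the members in each strain. It read 8.62, 9.01 and 8.20 in 129Sv knockouts, against 6.06, 6.24 and 5.88 in 129Sv wild type. In B6 knockouts it read 7.82, 7.28 and 7.73, against 6.35, 6.56 and 6.09 in B6 wild type. Every knockout array lay above every wild-type array. Irgm1 rose 5.86-fold in 129Sv (2.55 ± 0.22, adjusted p = 4.67e-06) and 2.42-fold in B6 (1.28 ± 0.22, adjusted p = 0.00235). The other tested GTPase of the family, Irgm2, was not called in either strain.

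Irf1, the transcription factor through which interferon-gamma acts on many of these genes, also rose in both strains. From the array values given above, Irf1 was at 9.11 or more on the 129Sv knockout arrays, against 8.24 or less in 129Sv wild type, and at 8.12 or more in B6 knockouts, against 7.55 or less in B6 wild type. The rise was 2.46-fold in 129Sv (1.30 ± 0.17, adjusted p = 0.00021) and 2.00-fold in B6 (1.00 ± 0.17, adjusted p = 0.00212). The difference between strains, 0.30 ± 0.24, did not pass (adjusted p = 0.559).

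Ifitm1, a membrane protein of antiviral defence that mouse germ cells express, read 12.11, 11.77 and 11.98 in 129Sv knockouts, against 10.97, 11.14 and 10.88 in 129Sv wild type. It read 11.67, 11.79 and 11.65 in B6 knockouts, against 11.07, 11.37 and 11.18 in B6 wild type. Knockout and wild type did not overlap in either strain. Ifitm1 rose 1.94-fold in 129Sv (0.96 ± 0.11, adjusted p = 6.02e-05) and 1.41-fold in B6 (0.49 ± 0.11, adjusted p = 0.0127), the B6 call being lost without B6 knockout replicate 2 (0.0537) or B6 wild-type replicate 3 (0.0603). Its family members Ifitm2, Ifitm3, Ifitm5 and Ifitm10 were not called.

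Of the 4 tested guanylate-binding proteins, Gbp3, Gbp2 and Gbp2b rose in 129Sv knockouts. Gbp3 read 6.47, 6.79 and 6.53 in 129Sv knockouts, against 4.06, 4.29 and 4.45 in 129Sv wild type. In B6 knockouts it read 3.47, 4.01 and 4.41, against 3.97, 4.25 and 3.78 in B6 wild type. Only the 129Sv knockout arrays stood apart, and the B6 groups overlapped at the detection limit. Gbp3 rose 5.04-fold in 129Sv (2.33 ± 0.24, adjusted p = 2.61e-05) and differed by -0.03 in B6 (adjusted p = 0.944). The difference between the strains' knockout effects was 2.37 ± 0.34 (adjusted p = 0.00357), and it passed when each array was left out in turn.

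Gbp2 read 5.95, 5.35 and 5.86 in 129Sv knockouts, against 4.42, 4.64 and 4.14 in 129Sv wild type. It read 4.39, 4.31 and 5.26 in B6 knockouts, against 4.52, 4.51 and 3.68 in B6 wild type. The groups were apart in 129Sv and overlapped in B6. Gbp2 rose 2.50-fold in 129Sv (1.32 ± 0.30, adjusted p = 0.0115), and its B6 difference was 0.41 (adjusted p = 0.404). Gbp2b, whose values are given above, rose 2.25-fold in 129Sv (1.17 ± 0.25, adjusted p = 0.00851) and was at the floor on all B6 arrays. For neither gene did the difference between strains pass (adjusted p = 0.305 for Gbp2 and 0.168 for Gbp2b). Both 129Sv calls were lost without 129Sv knockout replicate 1 (0.0592 and 0.0554), that of Gbp2 also without 129Sv wild-type replicate 3 (0.0638), and both with the number before the strain code in the array titles as a covariate (0.239 and 0.183). That number was 7 for all 129Sv knockouts and for 129Sv wild-type replicate 2, and 11 for 129Sv wild-type replicates 1 and 3. It thus nearly follows genotype in 129Sv, and the 2 can hardly be told apart there. Gbp7, the brightest tested Gbp gene with a mean of 7.39, was not called.

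**Figure D3:**
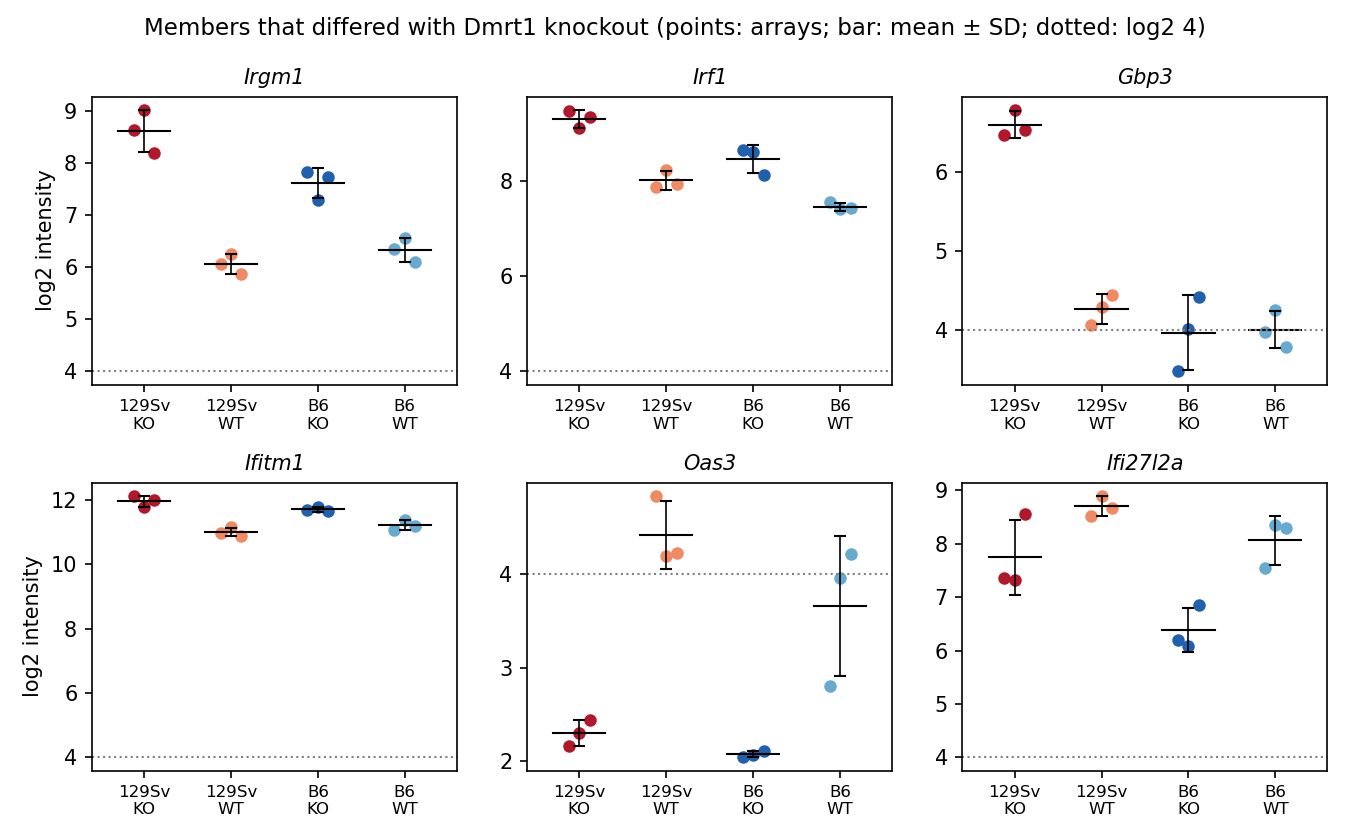
Log2 intensity (vertical axes) of members called between knockout and wild type, in 129Sv knockout, 129Sv wild-type, B6 knockout and B6 wild-type testes; points are arrays, bars the mean ± SD of 3, and the dotted line log2 4. Irgm1, Irf1 and Ifitm1 are higher in both knockouts, Gbp3 is at 6.47 or more in 129Sv knockouts and at 4.45 or less on all other arrays, Oas3 is under 4 on all knockout arrays, and Ifi27l2a is lower in B6 knockouts.

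Promoter windows of Irgm1, Gbp3 and Irf1 are shown because Irgm1 and Gbp3 had the widest rises and Irf1 rose in both strains. They come from the same RefSeq table as above, with the start site at position 251. Capitals mark the ISRE in Irgm1 (chr11:48871371-48871670, minus strand, matches at 221 to 230 and 227 to 236, which overlap) and in Gbp3 (the first of its 2 windows, chr3:142559794-142560093, plus strand, overlapping matches at 206 to 215 and 212 to 221). In Irf1 (the first of its 2 windows, chr11:53769764-53770063, plus strand) they mark a gamma-activated site (GAS, searched as TTCNNNGAA, its own reverse complement) at positions 161 to 169.
Irgm1: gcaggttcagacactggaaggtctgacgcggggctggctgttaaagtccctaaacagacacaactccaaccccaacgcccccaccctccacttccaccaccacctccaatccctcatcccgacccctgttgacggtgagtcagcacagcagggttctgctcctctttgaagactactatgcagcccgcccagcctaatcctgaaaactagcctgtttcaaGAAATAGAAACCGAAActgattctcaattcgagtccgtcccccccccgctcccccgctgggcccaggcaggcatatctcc
Gbp3: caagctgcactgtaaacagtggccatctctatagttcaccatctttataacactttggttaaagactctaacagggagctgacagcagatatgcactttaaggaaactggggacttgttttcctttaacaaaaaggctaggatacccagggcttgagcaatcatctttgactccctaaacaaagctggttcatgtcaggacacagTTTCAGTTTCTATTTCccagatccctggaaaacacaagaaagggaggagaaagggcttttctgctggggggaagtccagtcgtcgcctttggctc
Irf1: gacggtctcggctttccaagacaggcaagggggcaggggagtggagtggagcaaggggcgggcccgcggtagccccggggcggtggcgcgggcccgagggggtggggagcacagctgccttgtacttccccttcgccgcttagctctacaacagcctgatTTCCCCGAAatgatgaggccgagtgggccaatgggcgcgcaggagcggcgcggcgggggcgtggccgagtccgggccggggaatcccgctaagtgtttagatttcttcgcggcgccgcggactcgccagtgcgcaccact

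Promoter windows were counted for 50 of the 62 members, 64 windows in all. Member windows on chr18 had been left out of this count. The windows of all genes were not filtered this way, so the shares below were not counted alike. An ISRE was present in 25 of these 64 windows (39.1%), in 23 genes, against 1131 of 32851 windows of all genes (3.44%). A GAS was present in 11 of 64 (17.2%), against 8.3% of all windows. Gbp2 and Gbp2b each had 1 ISRE, as did Oas3, and Ifitm1 had neither motif. A match describes the letters in the window and is no evidence of binding.

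The members that fell were led by Ifi27l2a in B6. Ifi27l2a read 6.19, 6.09 and 6.86 in B6 knockouts, against 7.54, 8.36 and 8.29 in B6 wild type, without overlap, a 3.20-fold fall (-1.68 ± 0.32, adjusted p = 0.00406). In 129Sv it read 7.36, 7.31 and 8.56 in knockouts, against 8.52, 8.90 and 8.67 in wild type, and the difference of -0.96 ± 0.32 did not pass (adjusted p = 0.08). Replicate 3 of the 129Sv knockouts was the array that overlapped the wild type there.

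Oas3, an oligoadenylate synthetase, was under log2 4 on all 6 knockout arrays, with 2.16, 2.30 and 2.44 in 129Sv knockouts, against 4.83, 4.19 and 4.22 in 129Sv wild type. It had 2.05, 2.07 and 2.11 in B6 knockouts, against 2.80, 3.95 and 4.21 in B6 wild type. Knockout and wild type did not overlap in either strain, but only 4 of the 6 wild-type arrays were above the limit. The fall was -2.11 ± 0.31 in 129Sv (adjusted p = 0.000556, at least 1.33-fold) and -1.58 ± 0.31 in B6 (adjusted p = 0.00592, with both group means below 4). With values under 4 set to 4, neither passed (adjusted p = 0.155 and 0.831).

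Stat5a read 6.85, 6.91 and 7.70 in B6 knockouts, against 7.86, 8.10 and 8.46 in B6 wild type, a 1.97-fold fall (-0.98 ± 0.24, adjusted p = 0.0194). In 129Sv its difference of -0.65 ± 0.24 did not pass, though knockout and wild type did not overlap. The B6 call was lost without B6 knockout replicate 1 or 2 or B6 wild-type replicate 2 or 3 (adjusted p from 0.052 to 0.11). It was also lost with the probe sets of Stat5a averaged (0.0731) and with only the groups compared fitted (0.0789). When replicate 3 of the B6 knockouts, whose Actb ratio was highest, was left out, the B6 differences were 1.22 for Irgm1, 1.17 for Irf1, 0.52 for Ifitm1, -1.25 for Stat5a, -1.60 for Oas3 and -1.92 for Ifi27l2a, and all 6 passed.

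The test of the difference between the knockout effects, 129Sv minus B6, called 1 of 34 members, Gbp3 (2.94%, background 1.31%), which was higher (background 1.12%). Without B6 knockout replicate 1 it called 3 members and 2.36% of all genes. For Irgm1 the difference of 1.27 ± 0.31 did not pass (adjusted p = 0.0641). At an unadjusted limma p under 0.05 there were 7 of 34 members. The share of all tested genes at that threshold was not counted, so this count has no background beside it.

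**Figure D4:**
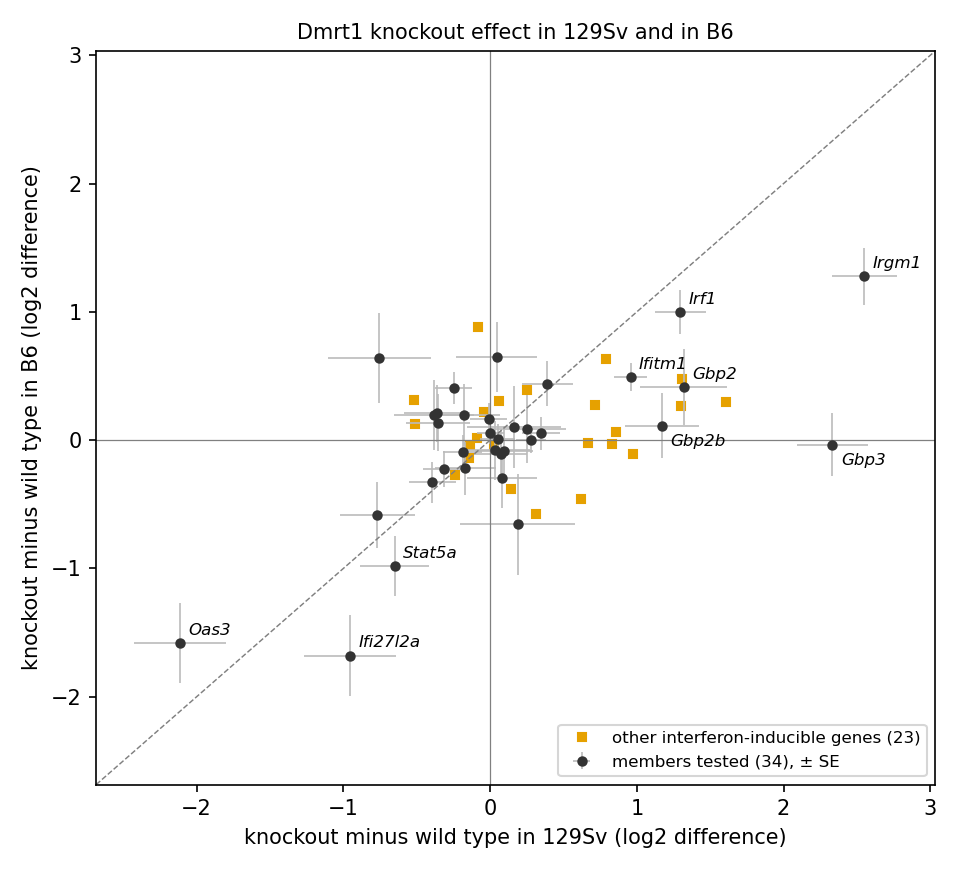
Difference of knockout minus wild type (log2) in 129Sv (horizontal) and in B6 testes (vertical); black points are limma estimates of the 34 tested members with standard errors as bars, orange squares those of 23 other interferon-inducible genes without bars, and the dashed line marks equal effects. Irgm1, at 2.55 and 1.28, Irf1 and Ifitm1 lie in the upper right, Gbp3 lies at 2.33 on the 129Sv axis and -0.03 on the B6 axis, and Oas3 lies in the lower left.

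Macrophage and leukocyte markers were not called in either knockout comparison (0 of 15 tested, background 8.31% in 129Sv and 7.9% in B6). Their sums were 2639 to 3253 in 129Sv knockouts, against 2762 to 3881 in 129Sv wild type, and 4879 to 7430 in B6 knockouts, against 3073 to 6169 in B6 wild type. Itgam was below log2 4 on all 12 arrays, as were Cd3e and Cd3g of T cells and all 3 plasmacytoid and dendritic cell markers. Of the 6 lymphocyte and NK markers 2 were tested and 1, Gzma, fell in each strain, with sums of 64.8 to 119 in 129Sv knockouts, against 284 to 399 in 129Sv wild type, and of 38.3 to 64.4 in B6 knockouts, against 127 to 191 in B6 wild type. Germ cell markers were called in B6 alone, where 2 of 5, Dnd1 and Mael, fell (background 5.45%). Their sums did not overlap in B6, at 5916 to 9747 in knockouts, against 11217 to 12733 in wild type, and overlapped in 129Sv, at 13774 to 17110 in knockouts, against 15055 to 15374 in wild type. The part of these cells in the knockout effects was not tested.

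The pathway around the members was followed in lists chosen by role. Of 10 interferon genes on the array, only Ifnz was bright enough to test, and neither knockout comparison called it. Between strains Ifnz was lower in 129Sv in wild type (-0.80 ± 0.26, adjusted p = 0.047) and knockout (-1.16 ± 0.26, adjusted p = 0.00335). The wild-type call was lost without any single wild-type array, 129Sv knockout replicate 3 or B6 knockout replicate 2 (up to 0.159). The beta interferon Ifnb1 reached at most 2.35 on any array and the gamma interferon Ifng at most 2.25, both below the limit. All 9 receptors and receptor kinases were tested. The knockout called 0 of them in 129Sv (background 8.31%) and 1, Ifnlr1, lower in B6 (background 5.45%). Ifnlr1 differed by -1.34 ± 0.27 in B6 (adjusted p = 0.00656), with 3 B6 knockout arrays below 4, and with values under 4 set to 4 it did not pass. Ifnlr1 was also higher in 129Sv knockouts than in B6 knockouts (1.12 ± 0.27, adjusted p = 0.00586), again not with values under 4 set to 4 (0.689). Tyk2, the kinase of the type I receptor, was higher in 129Sv in wild type (0.91 ± 0.21, adjusted p = 0.00939) and knockout (0.86 ± 0.21, adjusted p = 0.00646). The receptor chain Il10rb was lower in 129Sv in wild type (-1.02 ± 0.20, adjusted p = 0.00376) and knockout (-1.46 ± 0.20, adjusted p = 9.52e-05).

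Of 12 tested nucleic acid sensors and adaptors, the knockout called 2 higher and 1 lower in each strain. The background was 4.07% higher and 4.24% lower in 129Sv, and 2.45% and 5.45% in B6. Ddx58, which encodes the viral RNA sensor RIG-I, read 8.92, 8.85 and 8.99 in 129Sv knockouts, against 7.20, 7.22 and 6.72 in 129Sv wild type. In B6 knockouts it read 7.94, 7.74 and 7.41, against 6.84, 7.23 and 6.99 in B6 wild type. Ddx58 rose without overlap in both strains, 3.67-fold in 129Sv (1.88 ± 0.19, adjusted p = 1.57e-05) and 1.60-fold in B6 (0.68 ± 0.19, adjusted p = 0.0367). The difference between strains was 1.20 ± 0.26 (adjusted p = 0.0422), and it was lost when most arrays were left out singly. Zbp1, a sensor of Z-form nucleic acids, read 4.60, 4.71 and 4.86 in 129Sv knockouts, against 2.59, 2.03 and 2.45 in 129Sv wild type, and rose at least 1.65-fold (2.36 ± 0.30, adjusted p = 0.000146). The 129Sv knockout arrays of Zbp1 alone met the rule for testing, so a rise in 129Sv was in part built into its being tested. Its B6 rise of 1.08 ± 0.30 (adjusted p = 0.0386) and that of Ddx58 were lost without single arrays (up to 0.150 for Zbp1 and 0.124 for Ddx58, both without B6 wild-type replicate 3). With values under 4 set to 4, the B6 rise of Zbp1 was 0.19 (adjusted p = 0.396), and that of Ddx58 did not pass either (0.0518). The lower ones were Tlr3, a receptor for double-stranded RNA, in 129Sv (-0.66 ± 0.15, adjusted p = 0.0132) and the DNA sensor Aim2 in B6 (-0.92 ± 0.23, adjusted p = 0.0255). Tlr3 was not called without 129Sv knockout replicate 2 or 129Sv wild-type replicate 1, nor Aim2 without B6 knockout replicate 1 or any single B6 wild-type array. The Tlr3 call was also lost with the number before the strain code as a covariate (0.259) and with probe sets averaged (0.403).

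Of 23 other tested interferon-inducible genes, 8 were higher and 0 lower in 129Sv knockouts (background 4.07% and 4.24%). In B6 knockouts 1 was higher and 0 lower (background 2.45% and 5.45%). The median difference was 0.25 in 129Sv and 0.06 in B6. Rtp4 read 5.21, 5.23 and 5.01 in 129Sv knockouts, against 3.47, 3.58 and 3.59 in 129Sv wild type, and rose at least 2.22-fold (1.61 ± 0.24, adjusted p = 0.000567). Dtx3l, a ubiquitin ligase, and its partner Parp9 rose 2.48-fold (1.31 ± 0.17, adjusted p = 0.000233) and 2.46-fold (1.30 ± 0.22, adjusted p = 0.00157) in 129Sv. The Parp9 call was lost with the number before the strain code as a covariate (0.0834). Pml, the scaffold of nuclear bodies, was the gene called in both strains, with 0.79 ± 0.14 in 129Sv (adjusted p = 0.00222) and 0.63 ± 0.14 in B6 (adjusted p = 0.0125, and 0.063 without B6 wild-type replicate 3). Among 14 tested inhibitors of interferon signalling, Ptpn6, a tyrosine phosphatase of blood cells, was lower in 129Sv knockouts (-0.93 ± 0.21, adjusted p = 0.0113, background 4.24%), and B6 had 0 calls (background 7.9%). The Ptpn6 call was lost without 129Sv knockout replicate 2 (0.0615) or 129Sv wild-type replicate 3 (0.0567) and on adjusting for the number before the strain code (0.15).

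Antigen presentation genes are a known target class of interferon-gamma. Of 13 tested, 0 were higher and 2 lower in each strain, the same genes (background for lower calls 4.24% in 129Sv and 5.45% in B6). Nlrc5, the activator of class I genes, read 3.62, 2.97 and 4.26 in 129Sv knockouts, against 7.14, 6.71 and 6.55 in 129Sv wild type (-3.18 ± 0.48, adjusted p = 0.000641, at least 6.97-fold lower). In B6 knockouts Nlrc5 read 2.64, 3.31 and 2.99, against 3.70, 4.19 and 6.11 in B6 wild type (-1.69 ± 0.48, adjusted p = 0.0446). The B6 wild-type arrays were widely spread, and the B6 call was lost without 9 of the 12 arrays singly and with values under 4 set to 4 (0.262). H2-Aa, a class II chain, read 4.47, 4.35 and 4.80 in 129Sv knockouts, against 6.43, 6.81 and 6.41 in 129Sv wild type, a 4.03-fold fall (-2.01 ± 0.25, adjusted p = 0.000119). In B6 knockouts it read 3.87, 4.00 and 4.79, against 5.29, 5.71 and 5.50 in B6 wild type (-1.28 ± 0.25, adjusted p = 0.00529). The H2-Aa groups did not overlap in either strain.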

How the data were processed

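Total RNA of 12 testis samples was hybridised to Affymetrix arrays, 1 array per sample, in 4 groups of 3. The deposited values are linear intensities of 45101 probe sets, normalised with GCRMA per the submitters' processing notes. The 2 strains and 2 genotypes come from the labels' descriptions. Values were converted here to log2 of the deposited intensity. Probe sets naming 1 gene in the platform annotation were kept (34958), and each gene was read from its brightest probe set, by the mean of 12 arrays. Genes at log2 4 or more in at least 3 arrays entered limma (version 3.58.1 in R 4.3.3; lmFit, eBayes with a variance trend) with 4 groups, no covariates and 5 contrasts, adjusted by Benjamini-Hochberg over 12726 genes, and the procedure was tested on simulated data. Genes were named where they passed the threshold, in some families where they were the brightest, or, from other lists, up to 3 per direction. The brightest Irf, Stat and other Ifi genes were not called, and their values are not given. Ifit2, the only tested Ifit gene, with a mean of 6.73, was not called in any comparison. In the member rule, Mx was read as the Mx genes only. The members and lists were chosen with earlier results of these data known. Within groups arrays correlated at 0.983 to 0.998, and 0 were identical. Promoter windows are RefSeq's. The number of arrays limits the precision.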

Additional observations from a re-analysis of the deposited data

Results flagged for a closer look

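Gbp3 was flagged because its knockout effect differed between strains by the test of the difference itself, 2.37 (log2; 129Sv minus B6, limma adjusted p = 0.00357), with 6.47, 6.79 and 6.53 in 129Sv knockouts, against 4.06, 4.29 and 4.45 in 129Sv wild type, and B6 groups that overlapped near the detection limit. Without B6 knockout replicate 3 the difference was 2.59.

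Irf3 was flagged because its samples moved in opposite directions. Every 129Sv knockout array, at 9.59, 9.46 and 9.65, was below the 129Sv wild-type arrays, at 9.81, 9.83 and 9.81, and every B6 knockout array, at 9.79, 9.98 and 10.21, was above the B6 wild-type arrays, at 9.49, 9.60 and 9.68. Neither knockout effect passed (-0.25 ± 0.12 in 129Sv, adjusted p = 0.27, and 0.40 ± 0.12 in B6, adjusted p = 0.0596). The difference of the effects was -0.65 ± 0.17, and by the test of the difference it did not pass (adjusted p = 0.0877). The same value flagged the strain effect, which was -0.43 in knockouts and 0.23 in wild type.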

How the results depend on the processing

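No called member value changed sign under any alternative, and of 132 uncalled member values 43 changed sign when single arrays were left out. Leaving out each array in turn gave 4 to 10 called members for the strain effect in wild type (1030 to 2849 of all genes), 12 to 15 in knockout (3136 to 4316), 6 to 11 for the knockout effect in 129Sv (596 to 1561), 4 to 7 in B6 (430 to 1273) and 1 to 3 for the difference (39 to 300). A filter at log2 6 left 6 called members for the strain effect in wild type (1582 of all genes) and 9 in knockout (3625). It left 4 for the knockout in 129Sv (696). Fewer genes were tested under that filter. Averaging the probe sets of a gene gave 2 members and 108 genes for the difference, and testing every probe set 68 genes. Array weights raised the counts to 3461 genes for the strain effect in wild type, 12 members and 2092 genes for the knockout in 129Sv, 2166 genes in B6, and 6 members and 779 genes for the difference. Fitting only the groups compared gave 394 genes for the knockout in B6. Adding a 2-fold minimum left 5 members and 739 genes for the strain effect in wild type, 9 and 1334 in knockout, 549 genes for the knockout in 129Sv, and 3 members and 495 genes in B6. The Actb ratio as a covariate gave 11 members and 1534 genes for the knockout in 129Sv, and 6 members and 618 genes in B6. The number before the strain code, which nearly follows genotype in 129Sv, gave 5 members and 347 genes there. Same-numbered replicates did not deviate together (correlations from -0.466 to 0.069), so the replicate numbers were not taken to pair the samples. Replicates 1 and 2 of both B6 groups share the leading number of their titles, whose meaning is not given, and their correlations were 0.0076 and 0.0027. With the replicate block the members called were 7, 13, 7, 6 and 1 over the 5 comparisons. The counts of all genes were 1633, 3674, 787, 653 and 77 in the same order. Of the values named here, the calls lost under the block were those of Irf1 (0.0755), Stat3 (0.076), Oasl2 (0.0536) and Ifnz (0.0854) between wild types, Stat3 (0.0904) between knockouts, Ddx58 (0.0897), Aim2 (0.0706) and Pml (0.063) for the knockout in B6, and Ddx58 (0.113) and Trim34a (0.0813) for the difference. With Mx in the rule read as any symbol with a following letter, 68 genes matched before the brightness filter. Of these, 12, 18, 9, 7 and 1 were called over the 5 comparisons. How many of the 68 were bright enough to be tested was not counted, so these calls are no share of 68. Leaving out both arrays with the highest Actb ratio, chosen after seeing the data, gave 10, 13, 9, 7 and 1 called members. The counts of all genes were then 2904, 3521, 1088, 835 and 156. With probe sets averaged, 3 genes outside the member set reversed: Xaf1 was 0.33 in the wild-type strain effect, and Trim25 was 0.062 and Trim34a -0.85 in the knockout one. Averaging takes in other probe sets of these genes, and the cause was not tested. Over the 5 comparisons, each called value of a member or other named gene was read again under every alternative. The call was kept in 2112 of these readings and lost in 250, the latter including losses from the 2-fold minimum alone. The readings are not independent, since the same genes and arrays recur in them. Signals near log2 4 limit Gbp2b, Ifi202b, Trim12a, Oas3 and Gbp3, whose folds are bounds where a group was below it.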

Other observations

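Other interferon-inducible genes differed between the strains as well. Of 23 tested, 4 were higher and 3 lower in 129Sv wild type (background 10.9% and 5.19%). In 129Sv knockouts 7 were higher and 6 lower (background 20.3% and 13.8%). Bst2, the tetherin that holds viruses at the cell surface, read 9.40, 9.00 and 8.90 in 129Sv wild type, against 10.28, 10.32 and 10.31 in B6 wild type, and was 2.30-fold lower (-1.20 ± 0.17, limma adjusted p = 0.000382). In 129Sv knockouts it was 2.75-fold lower than in B6 knockouts (-1.46 ± 0.17, adjusted p = 2.95e-05). Parp14 was higher in 129Sv in wild type (1.45 ± 0.31, adjusted p = 0.0064) and knockout (1.34 ± 0.31, adjusted p = 0.00465). Apobec3, a cytidine deaminase that restricts mouse retroviruses, read 8.05, 8.13 and 7.88 in 129Sv wild type, against 6.76, 6.86 and 6.89 in B6 wild type, and was 2.27-fold higher (1.18 ± 0.29, adjusted p = 0.0138; 0.0604 without 129Sv wild-type replicate 2 and 0.0534 without B6 wild-type replicate 1). Apobec3 in knockouts read 8.46, 7.63 and 7.72 in 129Sv, against 7.04, 7.61 and 8.50 in B6, so the groups overlapped there and no call was made.

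Trim34a and Trim12c, neighbours of Trim12a in the Trim cluster of chromosome 7, were higher in 129Sv knockouts than in 129Sv wild type. Trim34a read 10.64, 10.89 and 10.56 in 129Sv knockouts, against 9.76, 9.49 and 9.93 in 129Sv wild type, and 9.32, 9.02 and 9.25 in B6 knockouts, against 9.27, 9.39 and 9.26 in B6 wild type. Its knockout effect differed between strains by 1.08 ± 0.20 (adjusted p = 0.0172), a call lost with probe sets averaged (0.107) and without 129Sv knockout replicate 2, 129Sv wild-type replicate 1 or B6 wild-type replicate 2 (up to 0.0629). Trim12c rose 1.78-fold in 129Sv knockouts (0.83 ± 0.15, adjusted p = 0.00307), while Trim12a stayed at the floor on all 129Sv arrays.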
